A study of Mus musculus with 12 samples.

Results

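Genes of fatty acid uptake, fatty acid oxidation and lipid droplets were followed across 12 RNA libraries of mouse aortic endothelial cells (MAECs). The 9 genes are Cd36, Fabp4, Fabp5, Lpl, Gpihbp1, Cpt1a, Pparg, Plin2 and Hilpda. They were chosen by gene symbol, and all 9 were found among the 10655 genes of the table. The libraries were made by SMART-seq, which copies transcripts over their full length, and form 4 groups of 3. CD is read here as control diet and WD as Western diet. CD_CD holds CD offspring of CD mothers, WD_CD holds CD offspring of WD mothers, CD_WD holds WD offspring of CD mothers, and WD_WD holds WD offspring of WD mothers. The mother's diet was read from the diet named before the mark _ in each title because the series text writes the groups in that order, and the titles do not state it. Offspring in both WD groups had received WD for a further 4 weeks, and the series title names a maternal high-fat diet and atherosclerosis. Age, sex, genotype and the way the cells were isolated remain not given in the sources used here, as does the origin of the replicates. The p-values therefore measure only the spread between these libraries, which may be technical.

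Fatty acids reach the arterial wall mostly inside lipoproteins. Lipoprotein lipase (Lpl) frees them from triglyceride at the capillary surface, where the endothelial protein Gpihbp1 holds the enzyme, and Cd36 and the fatty acid binding proteins Fabp4 and Fabp5 carry them into and through the cell. Inside, Cpt1a commits them to mitochondrial oxidation, or they are stored as droplets that Plin2 coats and that Hilpda protects from lipolysis, while the nuclear receptor Pparg senses fatty acids and drives many of these genes. Macrophages of atherosclerotic arteries also use Cd36, Lpl, Fabp4, Fabp5 and Plin2, and store much lipid.

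The libraries held 4074413 to 19670570 reads in genes, and the 9 genes took 0.0521% to 0.964% of them. All values below are normalised counts, that is reads divided by a size factor per library. Endothelial markers (16 of 16 listed genes measured, none at 0 in all libraries) had summed levels from 65692 to 108403 in CD offspring, against 4130 to 42682 in WD offspring. Macrophage and monocyte markers (15 of 16 measured) had sums from 12159 to 112507 in CD offspring, against 74854 to 1108131 in WD offspring. The endothelial sums thus did not overlap between the offspring's diets, whereas the macrophage sums did. Lyz2 was a large part of the latter, with means of 233203 in CD_WD and 575381 in WD_WD. Mertk, Mrc1 and Cd163 had lower means in WD than in CD offspring of the same mothers, and the other listed macrophage genes higher means. In such bulk libraries fewer cells of a type and less RNA per cell cannot be told apart. No batch is named, so a difference in preparation cannot be told apart from the offspring's diet either. CD_WD replicate 1 stood apart, with the lowest endothelial sum (4130) and the highest lymphocyte sum (394371). WD_CD replicate 3 stood apart as well, with 463 genes without a read, the most of the 12 libraries. Results that rest on these libraries are given with and without them.

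With CD mothers, 4 of the 9 genes passed the test between WD and CD offspring: Fabp5 and Hilpda rose, and Cpt1a and Cd36 fell. Of all 10655 genes, 15.0% passed in this comparison, 9.46% higher and 5.55% lower. With WD mothers, 5 of the 9 passed: Fabp5, Hilpda, Plin2 and Pparg rose, and Cpt1a fell. There, 24.4% of all genes passed, 14.2% higher and 10.2% lower. The mother's diet gave 0 calls among the 9 genes in either kind of offspring. Fabp5, Hilpda and Cpt1a passed for the offspring's diet with both kinds of mothers, whereas Fabp4, Lpl and Gpihbp1 passed with neither. The test was limma on log2(normalised count + 1), with p-values adjusted over all genes and a threshold of 0.05.

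**Figure D1:**
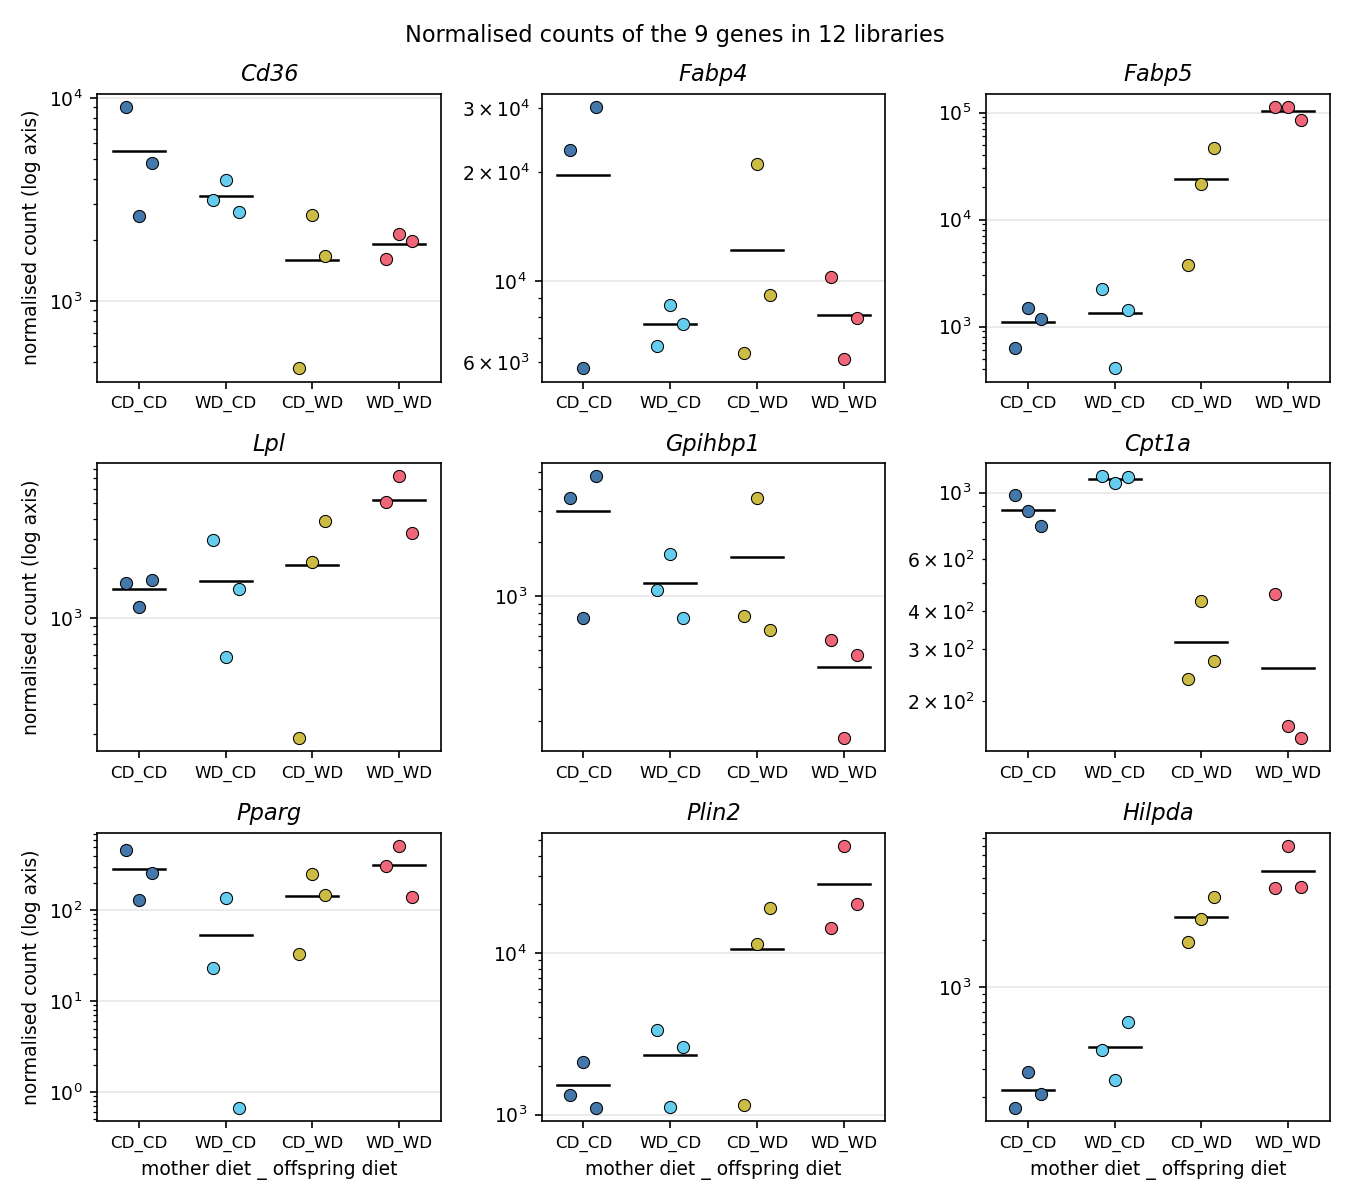
Each panel plots the normalised count of 1 gene (log axis) in the 12 libraries, by group, with points for libraries and a line for the mean of 3. Fabp5 and Hilpda lie higher and Cpt1a lies lower in every WD offspring library than in any CD offspring library. Within one kind of mother such separation was common: 21.9% of all genes were wholly higher and 21.6% wholly lower with CD mothers. With WD mothers these shares were 21.9% and 19.4%, and the share over both kinds of mothers was not counted.

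Among genes compared per kb of transcript, Fabp4 had the highest mean level in CD offspring, with 22007 normalised counts per kb in CD_CD and 8526 in WD_CD. Its libraries lay above those of the next gene, Gpihbp1 (3645 and 1432 per kb), in both groups. In WD offspring the highest mean level per kb was that of Fabp5, at 24157 in CD_WD, where its libraries overlapped those of Fabp4 (13596), and at 104823 in WD_WD, where they lay apart from those of Plin2 (14191). Pparg was lowest per kb with 161 in CD_CD, overlapping Cpt1a, and with 30.3 in WD_CD, apart from Cpt1a. Cpt1a was lowest with 73.0 in CD_WD and with 59.7 in WD_WD, overlapping Pparg in both. In WD_WD, Hilpda (5645 per kb) lay apart from Lpl (1259), and Lpl lay apart from Cd36 (563).

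Lpl (GRCm38 chr8:68880491-68907448, plus strand) measured 1638, 1169 and 1695 normalised counts in CD_CD and 2965, 583 and 1495 in WD_CD. It measured 188, 2182 and 3888 in CD_WD and 5055, 7209 and 3282 in WD_WD. All 3 WD_WD libraries lay above all 3 WD_CD libraries, as for 21.9% of all genes. CD_WD spanned CD_CD because of the 188 of CD_WD replicate 1. With WD mothers the log2 fold change of WD over CD offspring was 1.84 ± 0.90 (SE, 95% interval -0.10 to 3.79, adjusted p = 0.148). Without CD_WD replicate 1 and WD_CD replicate 3 it was 1.90 (adjusted p = 0.0326), and with only the 6 libraries compared in the fit it kept its size at adjusted p = 0.0318. It did not pass with edgeR (1.49, adjusted p = 0.212), DESeq2 (1.62, adjusted p = 0.105) or a block for the replicate number (adjusted p = 0.181). With single libraries left out the log2 fold change was 1.23 to 2.40, with adjusted p from 0.0996 to 0.391. With CD mothers it was -0.34 ± 0.90 (adjusted p = 0.85), and 0.98 (adjusted p = 0.301) without CD_WD replicate 1, so that no direction can be given.

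Gpihbp1 (chr15:75596628-75599481, plus strand), the endothelial anchor of Lpl, measured 3573, 749 and 4699 in CD_CD and 1074, 1718 and 752 in WD_CD. In WD offspring it measured 771, 3565 and 644 with CD mothers and 568, 159 and 467 with WD mothers. The WD_WD libraries were the 3 lowest of all 12. Among all genes, 19.4% were wholly lower in WD_WD than in WD_CD and 4.16% wholly lower than in CD_WD. The share lowest of all 12 was not counted. The offspring's diet gave -1.68 ± 0.78 with WD mothers (adjusted p = 0.13, or 0.0452 with only the 6 libraries in the fit) and -0.94 ± 0.78 with CD mothers (adjusted p = 0.46). With WD mothers Gpihbp1 did not pass with edgeR (-1.69, adjusted p = 0.142), DESeq2 (-1.57, 0.108) or a block for the replicate number (0.172). It did not pass with any single library left out either (adjusted p from 0.12 to 0.366). Within a library, the log2 ratio of Gpihbp1 to Lpl counts averaged -3.82 ± 1.46 (SD, n = 3) in WD_WD, 0.05 ± 2.38 in CD_WD, -0.30 ± 1.62 in WD_CD and 0.65 ± 1.13 in CD_CD. The ratio lay between -5.49 and -2.81 in WD_WD, below each of the other 9 libraries, of which CD_WD replicate 3 was lowest at -2.59. This ratio was formed with the values known and is a description.

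Cd36 (chr5:17781690-17888801, minus strand), the membrane receptor for fatty acids and oxidised lipoproteins, measured 9057, 2622 and 4785 in CD_CD and 466 (CD_WD replicate 1), 2666 and 1662 in CD_WD. It fell by 1.93 ± 0.57 on the log2 scale (95% interval -3.17 to -0.68, adjusted p = 0.0395), although the highest CD_WD library lay just above the lowest CD_CD library. The call was lost without CD_WD replicate 1 (-1.20, adjusted p = 0.0852), without CD_CD replicate 1 (-1.47, 0.17), without CD_CD replicate 3 (-1.93, 0.0872), with edgeR (-1.85, 0.0527) and with only the 6 libraries in the fit (0.113). With WD mothers the levels were 3149, 3936 and 2748 in CD offspring and 1616, 2146 and 1984 in WD offspring. Those groups did not overlap, but the log2 difference of -0.77 ± 0.57 did not pass (adjusted p = 0.34). Libraries of WD offspring that did not overlap those of CD offspring were common among all genes: with WD mothers 21.9% were wholly higher and 19.4% wholly lower, and with CD mothers 21.9% and 21.6%. Relative to the mean log2 level of the 16 endothelial markers in the same library, Cd36 lay at -0.46 to 1.41 in CD offspring and at 0.29 to 2.65 in WD offspring. The part of the endothelial marker level in the lower Cd36 count was not tested.

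Fabp4 and Fabp5 are genes of 1 family of cytosolic fatty acid carriers on the same chromosome (chr3:10204088-10208576, minus strand, and chr3:10012548-10016607, plus strand). Fabp4, typical of adipocytes, macrophages and capillary endothelium, measured 23041, 5758 and 30357 in CD_CD and 6647, 8617 and 7652 in WD_CD. It measured 6338, 21056 and 9153 in CD_WD and 10272, 6133 and 7919 in WD_WD. Its groups overlapped for either diet, and the spread was widest in CD_CD. The offspring's diet gave log2 differences of -0.57 ± 0.60 with CD mothers (95% interval -1.87 to 0.72, adjusted p = 0.571) and 0.06 ± 0.60 with WD mothers (-1.23 to 1.36, adjusted p = 0.949). The interval with WD mothers leaves room for more than 1 log2 unit in each direction, and that with CD mothers for a fall of this size.

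Fabp5, the carrier first known from epidermis and also made by macrophages, measured 626, 1480 and 1180 in CD_CD and 2233, 406 and 1417 in WD_CD. It measured 3752, 21271 and 46505 in CD_WD and 113694, 112250.1 and 84435 in WD_WD. Every WD offspring library lay above every CD offspring library, and within WD offspring every WD_WD library lay above every CD_WD library. Among all genes, 21.9% were wholly higher in WD offspring with either kind of mother, and the share over both was not counted. Within WD offspring, 5.86% of all genes were wholly higher with WD mothers. Fabp5 rose by 3.91 ± 0.81 log2 units with CD mothers (95% interval 2.16 to 5.66, adjusted p = 0.00735) and by 6.56 ± 0.81 with WD mothers (4.81 to 8.31, adjusted p = 0.000415). Without CD_WD replicate 1 and WD_CD replicate 3 the values were 4.93 (adjusted p = 0.000823) and 6.75 (adjusted p = 7.13e-05). With single libraries left out they ran from 3.11 (without CD_WD replicate 3) to 4.93 and from 5.85 (without WD_CD replicate 2) to 7.08 (without WD_CD replicate 1). Of the 50-base stretches of its principal transcript, 21.1% also occur in other annotated genes (Gm6166, Gm14328, Fabp5l2 and Gm13998, none in the table), so its level is uncertain to the extent that shared reads were assigned or dropped.

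The log2 ratio of Fabp5 to Fabp4 levels, each per kb, averaged 3.55 ± 0.44 (SD, n = 3) in WD_WD, 0.39 ± 1.61 in CD_WD, -2.94 ± 1.45 in WD_CD and -4.09 ± 1.74 in CD_CD. It ran from -5.34 to -1.71 over the 6 CD offspring libraries and from -0.90 to 4.05 over the 6 WD offspring libraries, without overlap. Fabp4 was the more abundant of the pair per kb in all 6 CD offspring libraries and Fabp5 in all 3 WD_WD libraries, while CD_WD was mixed, at -0.90, -0.12 and 2.21. As the ratio is taken within a library, the size factor does not enter it. Like the ratio of Gpihbp1 to Lpl, this ratio was formed with the values known and is a description. How many other pairs of genes separate in this way was not counted.

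**Figure D2:**
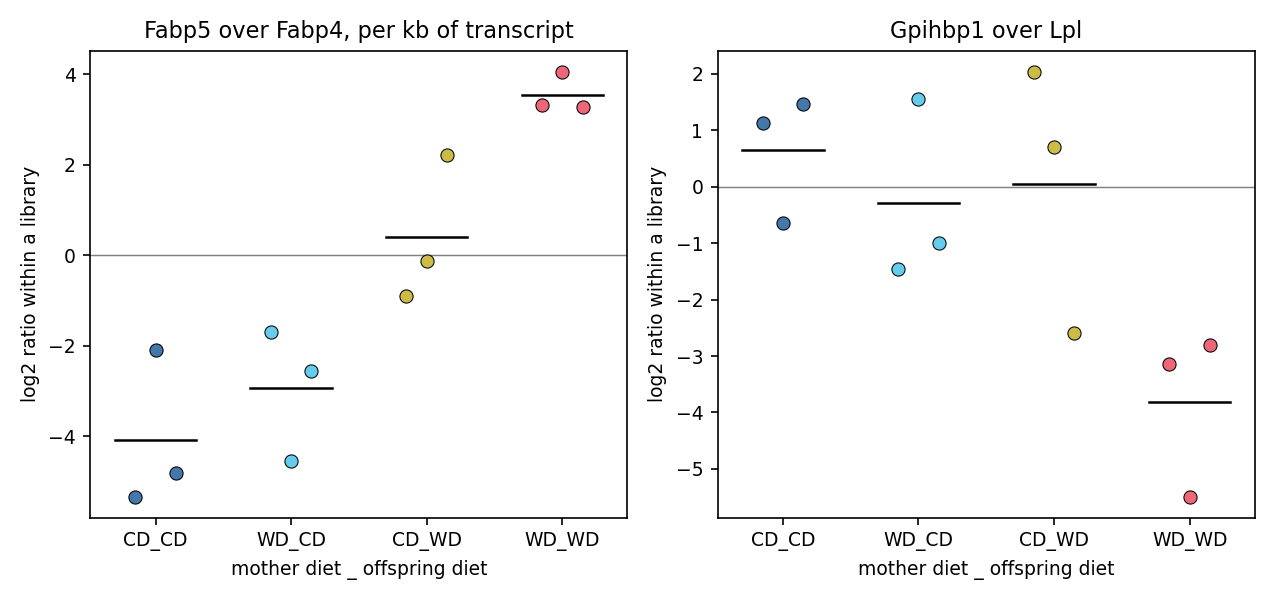
The left panel plots the log2 ratio of Fabp5 to Fabp4 per kb of transcript in each library, and the right panel that of Gpihbp1 to Lpl counts, with points for libraries and lines for the mean of 3. The left ratio lies below -1.7 in CD offspring and above 3.2 in WD_WD, and the right ratio lies below -2.8 in WD_WD.

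Cpt1a (chr19:3322334-3385733, plus strand), the mitochondrial gate for long-chain fatty acids, measured 979.7, 871 and 773 in CD_CD and 1135, 1076 and 1130.1 in WD_CD. It measured 238, 433 and 274 in CD_WD and 457, 165 and 150.5 in WD_WD. In WD offspring the highest library lay below the lowest CD offspring library. Of all genes, 21.6% were wholly lower with CD mothers and 19.4% with WD mothers, and the share over both was not counted. With WD mothers Cpt1a fell by 2.30 ± 0.43 on the log2 scale (95% interval -3.22 to -1.38, adjusted p = 0.00296), and without the libraries that stood apart the value was -2.29 (adjusted p = 0.00483). With CD mothers it fell by 1.51 ± 0.43 (-2.43 to -0.59, adjusted p = 0.0316). That call was lost when any CD_CD library, CD_WD replicate 1 (-1.34, adjusted p = 0.0733) or CD_WD replicate 3 was left out, with adjusted p-values up to 0.112. Relative to the endothelial marker mean of the same library, Cpt1a lay at -2.25 to -0.94 in CD offspring and at -2.31 to 1.22 in WD offspring. These ranges overlapped, and the part of the marker level in the fall of Cpt1a was not tested.

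Pparg (chr6:115360951-115490399, plus strand), the fatty acid sensing nuclear receptor, rested on few reads in several libraries. The CD_CD libraries had 464, 129 and 259.7 and the CD_WD libraries 33.0, 249 and 146. With WD mothers, the CD offspring libraries had 22.9, 137 and 0.669 and the WD offspring libraries 306, 509.5 and 139. The value of WD_CD replicate 3 is 1 read, that of WD_CD replicate 1 is 54 reads and that of CD_WD replicate 1 is 13 reads. With WD mothers the groups did not overlap, at 137 against 139 at the nearest, and 21.9% of all genes were wholly higher there. Pparg rose by 3.98 ± 1.32 log2 units (95% interval 1.14 to 6.83, adjusted p = 0.0436). The value was 2.28 (adjusted p = 0.136) without WD_CD replicate 3, and the call was also lost without any other library of the 6 except WD_CD replicate 2 (5.47, adjusted p = 0.0132). It was lost with edgeR (2.45, adjusted p = 0.164), with DESeq2 (2.57, adjusted p = 0.0656) and with only the 6 libraries in the fit (0.0852). With CD mothers the difference was -1.22 ± 1.32 (adjusted p = 0.588), and -0.38 (adjusted p = 0.914) without CD_WD replicate 1.

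Plin2 (chr4:86648386-86670060, minus strand), the perilipin that coats droplets in most cell types, measured 1322, 2131 and 1101 in CD_CD and 3334, 1116 and 2605 in WD_CD. It measured 1143, 11416 and 19108 in CD_WD and 14218, 45944 and 20213 in WD_WD. All WD_WD libraries lay above all CD offspring libraries, while CD_WD replicate 1, at 1143, lay within the CD_CD range. Wholly higher values in WD_WD than in WD_CD were found for 21.9% of all genes. Plin2 rose by 3.47 ± 0.85 log2 units with WD mothers (95% interval 1.62 to 5.32, adjusted p = 0.0127), a call lost without WD_CD replicate 2 (3.0, adjusted p = 0.054) or WD_WD replicate 2 (2.99, adjusted p = 0.0519). With CD mothers the value was 2.11 ± 0.85 and did not pass (adjusted p = 0.117). It was 3.34 (adjusted p = 0.00156) without CD_WD replicate 1, 2.73 with edgeR (adjusted p = 0.0468) and 2.80 with DESeq2 (adjusted p = 0.00219).

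Hilpda (chr6:29272488-29275446, plus strand), a droplet protein that inhibits adipose triglyceride lipase and is induced by hypoxia and by fatty acids, measured 169.6, 288 and 208 in CD_CD and 397, 254 and 602 in WD_CD. It measured 1955, 2749 and 3795 in CD_WD and 4282, 7998 and 4351 in WD_WD. Every WD offspring library, CD_WD replicate 1 included, lay above every CD offspring library. Of all genes, 21.9% were wholly higher with either kind of mother, and the share over both was not counted. Hilpda rose by 3.65 ± 0.41 log2 units with CD mothers (95% interval 2.77 to 4.53, adjusted p = 0.000541) and by 3.75 ± 0.41 with WD mothers (2.87 to 4.63, adjusted p = 0.000344). Without the libraries that stood apart, the values were 3.89 (adjusted p = 0.000364) and 4.06 (adjusted p = 7.44e-05).

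Promoter windows are shown for the droplet genes Plin2 and Hilpda, which both rose in WD offspring of WD mothers, while with CD mothers Hilpda alone passed. RefSeq promoters (GRCm38.p6, 250 bases before to 50 after a start site) matched 5 of the 9 genes, with 8 start sites: Plin2, Cd36, Hilpda, Pparg and Cpt1a. The consensus direct repeat with a spacer of 1 base, bound by Pparg with its partner receptor, was searched on both strands and occurs in 0 of these 8 promoters and in 0.0396% of all 32851. Its degenerate form occurs in 0 of the 8 and in 0.578% of all. The core of the hypoxia response element, ACGTG or GCGTG on either strand, occurs in 43.8% of all promoters, and among the 9 genes in the Plin2 promoter, in both Hilpda promoters and in 1 of the 3 Pparg promoters. The capitals below mark these cores or their reverse complement. The Plin2 window (chr4:86670058-86670159, minus strand) runs from 100 bases before the start site to the 2 bases after it, and its last 6 bases hold 2 overlapping cores, 1 on each strand. The Hilpda window (chr6:29272569-29272598, plus strand) is 30 bases long and begins 57 bases before the downstream start site, inside the untranslated exon of the transcript from the upstream start site.
Plin2: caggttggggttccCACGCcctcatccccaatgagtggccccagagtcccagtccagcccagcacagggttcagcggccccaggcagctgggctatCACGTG
Hilpda: tggatggccagcggACGTGccccagggcga
A match of letters is a description and shows no binding, and this core is common among promoters.

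Next, WD mothers were set against CD mothers within each offspring diet. In CD offspring 0 of the 9 genes passed, and 0 of all genes (0.0%) were called by limma and 0 by edgeR, with 276 and 182 under 0.05 before adjustment. DESeq2 called 9 genes (318 before adjustment), none of them among the 9. Pparg had the largest log2 difference, -3.83 ± 1.32 (95% interval -6.67 to -0.98, unadjusted p = 0.0124, adjusted p = 1), which was -2.12 without WD_CD replicate 3 and -5.31 without WD_CD replicate 2. Fabp4 had -1.07 ± 0.60, Gpihbp1 -1.06 ± 0.78, Cd36 -0.58 ± 0.57, Hilpda 0.86 ± 0.41 and Plin2 0.55 ± 0.85, each with adjusted p = 1. Cpt1a was the single gene of the 9 whose groups did not overlap, at 773 to 979.7 in CD_CD and 1076 to 1135 in WD_CD, with a log2 difference of 0.35 ± 0.43 (adjusted p = 1). Among all genes, 4.0% were wholly higher and 4.87% wholly lower in this way.

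In WD offspring the mother's diet also gave 0 calls among the 9 genes, and 0 of all genes (0.0%) were called by limma and 0 by edgeR, with 628 and 543 under 0.05 before adjustment. DESeq2 called 14 genes (775 before adjustment), none of them among the 9. Fabp5 had 2.73 ± 0.81 log2 units (95% interval 0.98 to 4.47, unadjusted p = 0.00507, adjusted p = 0.836), with means of 23843 ± 21492 (SD, n = 3) in CD_WD and 103460 ± 16492 in WD_WD. Lpl (2.07 ± 0.90), Plin2 (1.91 ± 0.85) and Hilpda (0.96 ± 0.41) lay higher and Gpihbp1 (-1.79 ± 0.78) lower in WD_WD, each with an unadjusted p under 0.05 and adjusted p = 0.836. Fabp5 and Hilpda were wholly higher and Gpihbp1 wholly lower, where 5.86% and 4.16% of all genes were so. Leaving out CD_WD replicate 1 brought Fabp5 to 1.70, Lpl to 0.76 and Plin2 to 0.68. In the authors' deposited table the same comparison gave log2 fold changes of 2.12 for Fabp5 (adjusted p = 0.238), -2.06 for Gpihbp1 (0.203) and 0.97 for Hilpda (0.419).

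The interaction asks whether the effect of one diet depends on the other. None of the 9 passed: 0 of all genes (0.0%) were called by limma and 0 by edgeR, with 342 and 306 under 0.05 before adjustment, and DESeq2 called 10 (453 before adjustment), none of them among the 9. Pparg had 5.20 ± 1.86 (95% interval 1.17 to 9.23, unadjusted p = 0.0154, adjusted p = 0.997) and Fabp5 had 2.65 ± 1.14 (0.18 to 5.12, unadjusted p = 0.0375, adjusted p = 0.997). Lpl had 2.18 ± 1.27 and Hilpda 0.10 ± 0.58, both with adjusted p = 0.997. The larger rise of Fabp5 with WD mothers than with CD mothers was therefore not shown to differ, and the passing of Plin2 and Pparg with WD mothers alone was not either. Comparisons with a group in common share its libraries.

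**Figure D3:**
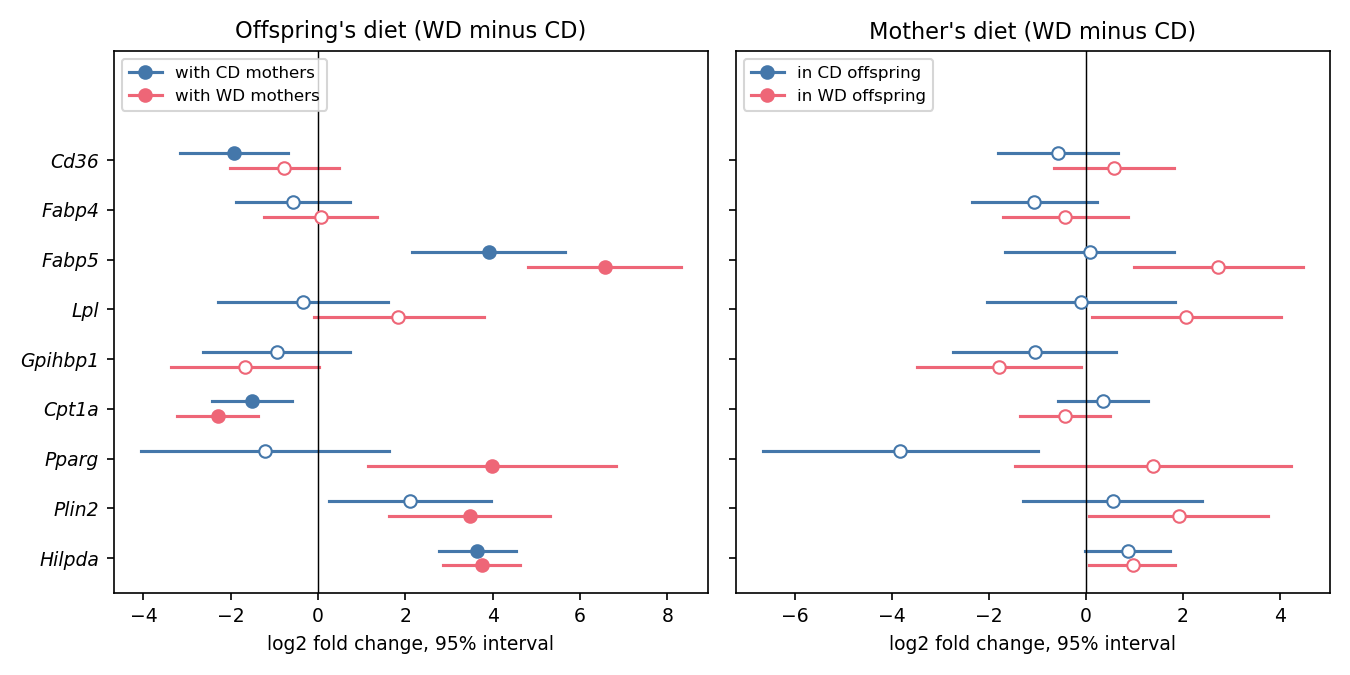
Log2 fold changes with 95% intervals for the 9 genes: the left panel sets WD against CD offspring, the right panel WD against CD mothers, and filled points passed at an adjusted p under 0.05. Filled points occur only in the left panel, for 4 genes with CD mothers and 5 with WD mothers.

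Wider lists of the same pathways, counted without the 9 genes, held few calls for the offspring's diet. Of all genes, 15.0% passed with CD mothers and 24.4% with WD mothers. Of 15 further measured uptake genes, Dbi, an acyl-CoA binding protein, rose with both kinds of mothers (1.52 ± 0.35, adjusted p = 0.0126, and 1.77 ± 0.35, 0.00407), and Cav1, the caveolar protein abundant in endothelium, fell with CD mothers (-3.14 ± 0.91, 0.0355). Of 27 further oxidation genes, Etfb, a subunit of the electron transfer flavoprotein, rose with both (1.51 ± 0.31, adjusted p = 0.00662, and 1.70 ± 0.31, 0.00253). Median log2 differences of these 27 genes were -0.36 with CD mothers and -0.08 with WD mothers, beside -0.02 and 0.01 over all genes. Those of the 15 uptake genes were -0.42 and 0.28. With WD mothers 0 of the 27 fell.

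Of 25 further droplet genes, Aup1, a droplet protein of the ubiquitin pathway, rose with CD mothers (1.43 ± 0.40, adjusted p = 0.0305). Soat1, which esterifies cholesterol (2.24 ± 0.55, 0.0123), and G0s2, an inhibitor of adipose triglyceride lipase (2.65 ± 0.90, 0.0477), rose with WD mothers. None of the 25 fell, and their medians were 0.32 and 0.58. Of 10 further genes around Pparg, the transcription factor Cebpb rose with both kinds of mothers, from 843 ± 203 (SD, n = 3) in CD_CD to 7504 ± 2601 in CD_WD (log2 3.13 ± 0.47 SE, adjusted p = 0.00167) and from 1029 ± 161 in WD_CD to 7667 ± 4978 in WD_WD (2.67 ± 0.47, 0.00217). The partner receptor Rxra had -1.73 ± 0.70 (adjusted p = 0.114) and -0.25 ± 0.70 (0.812). Medians of these 10 genes were -0.52 with CD mothers and -0.58 with WD mothers, beside -0.02 and 0.01 over all genes, and none passed as lower. Of these calls, Aup1 was lost with edgeR (adjusted p = 0.0609) and with the replicate block (0.0519), Cav1 with edgeR (0.079) and G0s2 with the block (0.0644). For the mother's diet, and for the interaction, 0 genes of these 4 lists passed.

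Cell type markers also differed with the offspring's diet, beside the shares of 9.46% higher and 5.55% lower over all genes with CD mothers and of 14.2% and 10.2% with WD mothers. With CD and WD mothers respectively, 4 and 8 of 15 macrophage and monocyte markers rose in WD offspring (0 fell with CD mothers, and Cd163, a scavenger receptor of resident macrophages, fell with WD mothers), 1 and 5 of 10 markers of lipid-laden macrophages rose (0 fell), and 9 and 8 of 16 endothelial markers fell (0 rose). Of 4 measured neutrophil markers 3 and 4 rose (0 fell), with median log2 differences of 7.06 and 7.37, and their sums ran from 56.2 to 800.5 in CD offspring, against 13403 to 192564.5 in WD offspring. Ly6g, Cxcr2, Mpo, Camp and Ngp of that list were not in the table. Of 11 lymphocyte markers 5 and 2 rose, and of 6 dendritic cell markers 2 and 2 rose, with 0 falling in either list. Of 9 smooth muscle markers 7 and 2 fell, and of 9 fibroblast markers 1 and 3 fell, with 0 rising. Of 9 measured adipocyte markers 0 rose with CD mothers and 1 (Pck1) with WD mothers, and 0 fell. Cd163 (325 ± 147 in WD_CD, SD, n = 3, against 62.3 ± 101.8 in WD_WD) and Pck1 (8.53 ± 9.08 against 368 ± 110) were singled out after their values were seen. Adipoq, the defining adipokine, averaged 77.2 ± 37.6 (SD, n = 3) in WD_WD, 205 ± 176 in CD_WD, 33.8 ± 41.3 in WD_CD and 83.4 ± 124 in CD_CD, and Lep, Retn, Slc2a4, Adrb3 and Acvr1c were not in the table. The sums of the 9 adipocyte markers ran from 672 to 4036 in CD offspring and from 674 to 5652 in WD offspring.

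Fabp5 minus the mean log2 level of the 15 macrophage markers in the same library was -0.23 to 0.83 in CD offspring, 2.43 to 3.08 in CD_WD and 4.29 to 4.39 in WD_WD. This list is uneven: Fcer1g, a signalling chain of myeloid cells, averaged 847 in CD_CD, 35968 in CD_WD, 1749 in WD_CD and 73985 in WD_WD, while Cd163 fell with WD mothers, so the difference depends on which markers are taken. CD_WD replicate 1, whose macrophage mean of 8.99 lay below that of 5 of the 6 CD offspring libraries, had a difference of 2.88 for Fabp5 and a neutrophil marker sum of 65154. The same difference overlapped between CD and WD offspring for Plin2 (0.46 to 1.71 and 1.17 to 3.10) and lay lower in WD offspring for Lpl (0.29 to 1.31 and -1.43 to 0.43, with overlap). For Hilpda it was -2.61 to -0.40 in CD offspring, just overlapping the -0.54 to 1.94 of WD offspring, and was highest in CD_WD replicate 1. The part of the macrophage and neutrophil levels in the rises of Fabp5, Plin2 and Hilpda was not tested.

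Within CD offspring the markers of lipid-laden macrophages were uneven too. Their mean log2 level was 12.39 in WD_CD replicate 1, 11.17 in CD_CD replicate 2 and 11.10 in WD_CD replicate 3, and 6.89 to 8.10 in the other 3 libraries. The same 3 libraries had the 3 highest CD offspring counts of Plin2 (3334, 2131 and 2605) and of Fabp5 (2233, 1480 and 1417). Capillary markers other than the 9 genes (6 genes) had mean log2 levels of 9.88, 7.57 and 9.70 in CD_CD and 6.46, 8.99 and 7.12 in CD_WD. With WD mothers these were 7.56, 8.54 and 7.48 in CD offspring and 7.23, 6.08 and 6.03 in WD offspring. This list is uneven as well: Rgcc averaged 1561 in CD_CD, 2915 in CD_WD, 970 in WD_CD and 3612 in WD_WD. Car4, Cd300lg, Btnl9, Aqp7 and Tcf15 had lower means in WD than in CD offspring of the same mothers. With WD mothers 1 of the 6 genes passed as higher, and the sums of the 6 were higher in WD_WD (3615 to 4624) than in WD_CD (1760 to 3031). The 3 libraries highest in these markers, CD_CD replicates 1 and 3 and CD_WD replicate 2, also had the 3 highest counts of Fabp4 and of Gpihbp1. CD_CD replicate 2 was low in the capillary markers, in Fabp4 and in Gpihbp1. The part of this variation in the diet comparisons was not tested.

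**Figure D4:**
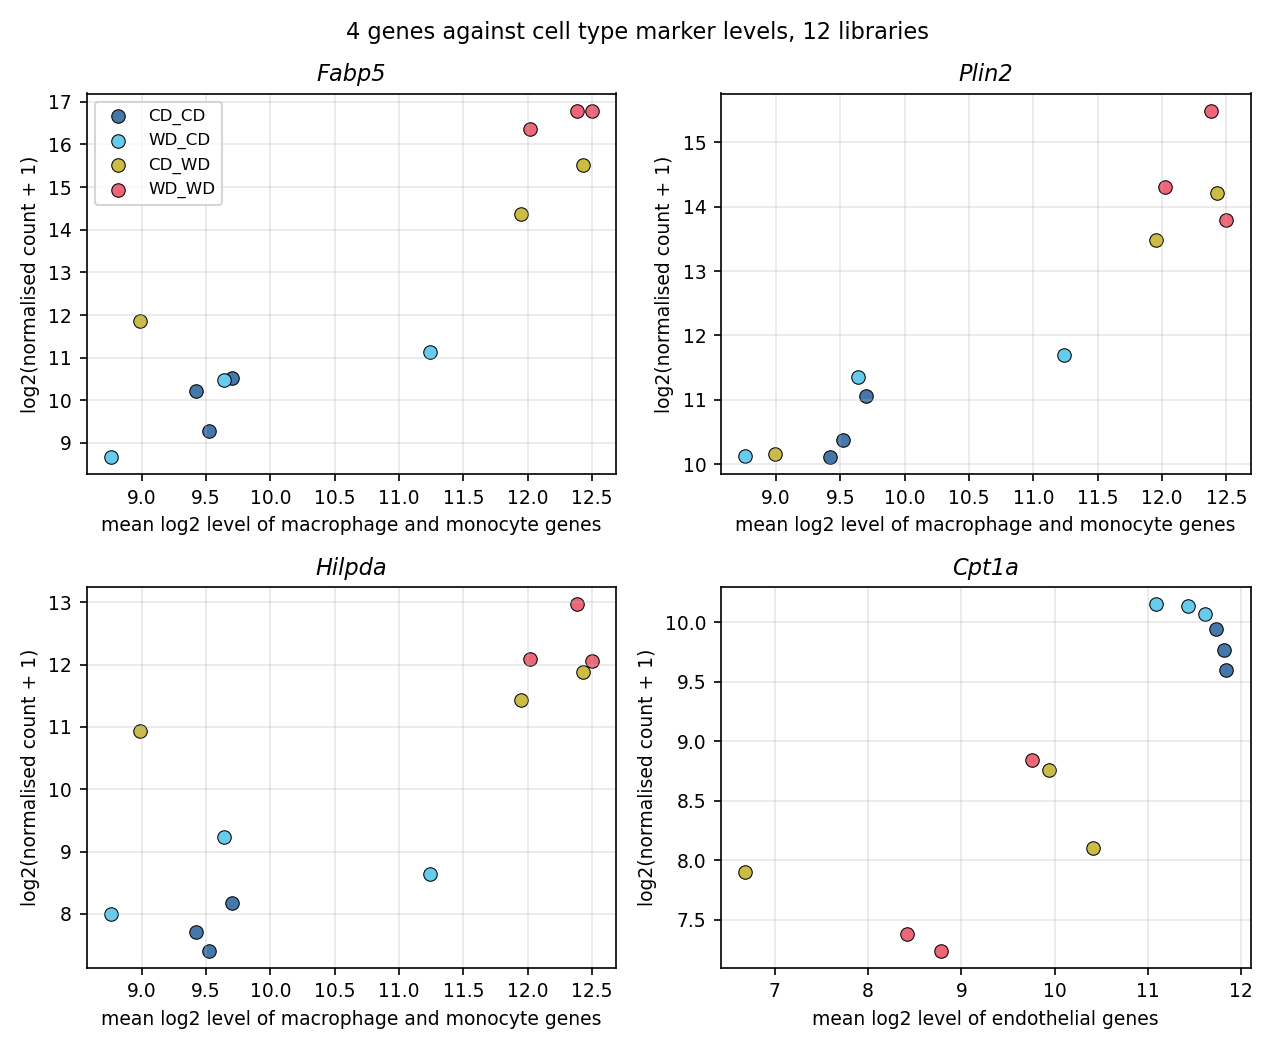
Each point is 1 of the 12 libraries: Fabp5, Plin2 and Hilpda (log2 of normalised count + 1) are plotted against the mean log2 level of macrophage and monocyte markers, and Cpt1a against that of endothelial markers. CD_WD replicate 1, at a macrophage mean of 8.99, has Fabp5 and Hilpda above and Plin2 within the CD offspring values.

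Likeness of patterns was measured as the root mean square difference of log2 levels over the 12 libraries, each gene centred on its own mean, where a smaller value is more alike. Libraries share depth and cell mixture, so this describes the table only. Among the 9 genes, Plin2 and Hilpda differed by 0.96, Lpl and Plin2 by 1.14, Fabp5 and Hilpda by 1.25 and Fabp5 and Plin2 by 1.36. Fabp4 differed from Cd36 and from Gpihbp1 by 0.84 each, and Cd36 and Cpt1a differed by 0.89. These values are near the genes' own variation: Fabp4 had an SD of 0.79 over the libraries, Cd36 of 0.99 and Cpt1a of 1.06, and Gpihbp1 and Cd36 ranked 481 and 504 in likeness to Fabp4. Plin2, Hilpda and Fabp5 had SDs of 1.87, 1.95 and 2.95, and Hilpda ranked 91 in likeness to Plin2. Fabp5 and Gpihbp1 were furthest apart, at 3.94.

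Over the 9902 genes with a mean of at least 50, the genes most like Fabp5 were Lyz2 (0.70), Wfdc17 (0.72) and Fcer1g (0.75), of which Lyz2 and Fcer1g are in the macrophage list. Most like Plin2 were Ctsb (0.40), Ccl9 (0.46) and Ms4a6d (0.46), of which Ctsb is in the list of lipid-laden macrophage markers. Most like Hilpda were Itgb2 (0.45), Cstb (0.46) and Hk2 (0.52). For Lpl they were Tmem86a (0.36), Igf1 (0.37) and Rab3il1 (0.50). Cd36 was matched most closely by Mgll (0.39), the monoglyceride lipase of the droplet list, Myadm (0.40) and Tspan18 (0.43), and Cpt1a by Secisbp2l (0.35), Tmem57 (0.35) and Qk (0.36). For Fabp4 they were Itga6 (0.54), Ccdc85b (0.56) and Bod1 (0.60), and for Gpihbp1 Rai1 (0.73), Mbp (0.73) and Aqp7 (0.79), the last a capillary marker. Pparg had no gene closer than Adck1 (0.80), P2ry2 (0.87) and Dcun1d3 (0.88).

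**Figure D5:**
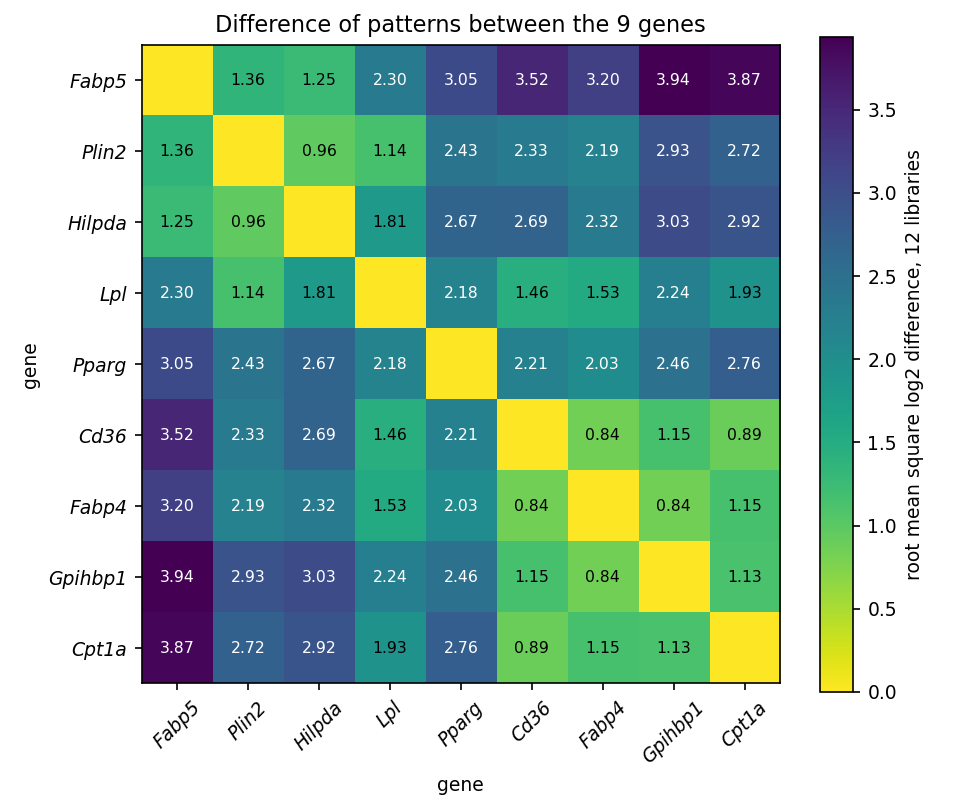
The grid gives the root mean square log2 difference between the centred patterns of each pair of the 9 genes over 12 libraries, with smaller values more alike. Values among Fabp5, Plin2 and Hilpda (0.96 to 1.36) lie below those genes' own SDs of 1.87 to 2.95, while values among Cd36, Fabp4, Gpihbp1 and Cpt1a (0.84 to 1.15) lie near theirs of 0.79 to 1.36.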

How the data were processed

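SMART-seq reads of 12 libraries went through DESeq2, featureCounts 2.0.1, FastQC 0.12.1, HISAT2 2.2.1, SAMtools 1.13 and Trim Galore 0.6.10 on GRCm38 (mm10), per the submitters' processing notes. Settings, strand and multi-mapping rules remain not given in the sources used here, as does the order of steps. The authors deposited a normalised signal per gene and library, in which 100% of 127860 values were whole multiples of 1 read (tolerance 0.01), so that counts divided by size factors were recovered. The authors' deposited table also holds log2 fold changes and p-values for both comparisons of the mothers' diets. Those counts, recovered from the deposited signal, were used for edgeR 4.0.16 (quasi-likelihood test) and DESeq2 1.42.0 as alternatives.

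The test was limma 3.58.1 with a mean-variance trend on log2(value + 1) over all 12 libraries (4 group means, 8 residual degrees of freedom, R 4.3.3), adjusted by Benjamini-Hochberg over 10655 genes. The pseudocount of 1 weighs most on low genes, and values of low genes depended on the method. For Pparg, limma gave 3.98 for the offspring's diet with WD mothers, against 2.45 with edgeR and 2.57 with DESeq2. For the mother's diet in CD offspring it gave -3.83, against -2.39 with edgeR and -2.40 with DESeq2. A filter at a mean of 1 removed 0 genes, so all 9 genes were tested. The script was tested on simulated data. Levels per kb used the principal transcript (GENCODE vM21). Every gene of the set was named, with the 3 genes most like each and up to 4 genes per pathway list with the smallest p for the offspring's diet. The 9 genes and all lists were chosen with earlier results of these data known. Precision was limited by 3 libraries a group. Alternatives were a pseudocount of 5, a filter at 50 or none, TMM scaling, a replicate block, only the 6 libraries compared, edgeR, DESeq2 and each library left out. Leaving out CD_WD replicate 1 and WD_CD replicate 3 together was chosen after seeing the data. The result of 1 gene of the wider lists is not reported here.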

Additional observations from a re-analysis of the deposited data

Results flagged for a closer look

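For Cd36 and Pparg, every library on WD lay to one side of the mean of its CD counterpart under 1 level of the other diet and to the opposite side under the other level, and the difference between both effects was tested as an interaction. Fitted effects of opposite sign, without such a split of every library, were also found for Lpl (mother's diet -0.11 and 2.07, offspring's diet -0.34 and 1.84), Fabp4 (offspring's diet -0.57 and 0.06) and Cpt1a (mother's diet 0.35 and -0.44). Cd36, the fatty acid receptor, had a mother's diet effect of -0.58 in CD offspring and 0.58 in WD offspring, a difference of 1.16 log2 units (limma adjusted p = 0.997), and without CD_WD replicate 1 the value in WD offspring was -0.15, so the signs were then alike. Pparg, the nuclear receptor, had mother's diet effects of -3.83 and 1.38, a difference of 5.20 (limma adjusted p = 0.997). Its offspring's diet effects, -1.22 with CD mothers and 3.98 with WD mothers, differ by the same 5.20, since both are the same interaction. The lowest of its 12 values is the 1 read in WD_CD replicate 3.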

How the results depend on the processing

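Of 720 alternative values of single genes, 665 kept their sign and their side of the threshold, 24 lost it, 7 gained it and 24 changed sign, in 8 of 45 results, 0 of them called. Fabp5 and Hilpda with both kinds of mothers and Cpt1a with WD mothers passed under each alternative run. The number called with CD mothers ranged from 2 to 4 with 1 library left out (4 in all libraries, lowest without CD_CD replicate 1 or 3), and with WD mothers from 3 to 4 (5 in all libraries, lowest without WD_WD replicate 2). Signs turned for the mother's diet in CD offspring for Lpl (-0.11; edgeR 0.18, DESeq2 0.16, left-out libraries -0.66 to 0.51) and Fabp5 (0.08; -0.44 to 0.79, and -0.11 without both libraries that stood apart), and in WD offspring for Cd36 (0.58; -0.15 to 1.11, and -0.15 without both) and Fabp4 (-0.43; -0.81 to 0.06). For the offspring's diet they turned for Lpl with CD mothers (-0.34; edgeR 0.41, DESeq2 0.48, left-out libraries -1.21 to 0.98, and 0.98 without both) and Fabp4 with WD mothers (0.06; TMM -0.06, edgeR -0.04, left-out libraries -0.12 to 0.25), and for the interaction for Gpihbp1 (-0.73; -1.24 to 0.08) and Hilpda (0.10; -0.21 to 0.41). The cause was not tested.

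TMM scaling moved the median of all genes by -0.09 with CD mothers and -0.12 with WD mothers and changed no call of the 9 genes. The replicate numbers did not pair the libraries: of 18 same-numbered pairs 0 had a correlation of deviations over 0.1 (-0.232 to 0.074), and 4 correlated best with their own number. With the replicate block 3 of the 9 genes were called with CD mothers (Cd36 at adjusted p = 0.0625) and 5 with WD mothers. Low counts limit Pparg, with 1 read in WD_CD replicate 3 and 35 in WD_WD replicate 3. Leaving a library out leaves 2 in its group, and the pooled spread is then assumed for them.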
